A study of Mus musculus with 6 samples.

Results

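Upper-layer neurons of the cerebral cortex send axons through the corpus callosum to the opposite hemisphere, and their identity is set by a small group of transcription regulators. The 9 genes described here are Cux1, Cux2, Pou3f1, Pou3f2, Pou3f3, Lhx2, Bhlhe22, Rorb and Lmo4. They were chosen by symbol, and each had 1 row among the 35510 genes of the deposited count table. All 9 passed the filter on low values, which kept the 22479 genes whose normalised counts averaged 10 or more. A normalised count is the number of reads assigned to a gene divided by 1 scaling factor per library.

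The comparison asks how transcripts of newborn cortical neurons differ when the microRNA miR-17-5p is sequestered, in a study of wiring between the hemispheres after alcohol exposure before birth. In utero electroporation at E15.5 delivered a control plasmid to one group of mice and a miR-17-5p sponge plasmid to the other, and cortical neurons were taken at P0. Both groups were wild type, of the outbred Swiss stock RjOrl:SWISS. Each group had 3 libraries, each pooled from about 10 brains and about 100000 cells, and FACS in the names of the count columns points to sorted cells. A sponge RNA carries many copies of a microRNA's target site and so competes with its natural targets. No alcohol-exposed animals were analysed here, nor was the level of miR-17-5p itself. The labels do not say which libraries came from separate litters or sessions, so p-values measure only the spread between these libraries.

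In mouse cortex, layers form from the inside out: deep-layer neurons are born first, and progenitors electroporated late in neurogenesis give rise mainly to upper-layer neurons. Cux1, Cux2 and the POU factors Pou3f2 and Pou3f3 mark and help to build the upper layers, Rorb marks layer IV, and Lhx2, Bhlhe22 and Lmo4 act in patterning the cortex and in its projection neurons. Several of them are also present in progenitors, and Lmo4 in other neurons.

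Depth, as the sum of the whole steps that make up each column of the count table, was 115445910 to 138254412 counts per library. Control library 1 stood apart from the other 5: its correlations with them across genes were 0.942 to 0.955, against 0.974 to 0.986 for the other 10 pairs. The summed level of 5 erythroid markers was 32172 normalised counts there and 1392 to 4187 in the other 5 libraries, with no erythroid marker at 0 in any library. Pan-neuronal markers (9 genes) summed to 603848 to 656623 normalised counts in the controls and 628632 to 641443 in the sponge libraries. Control library 1 held the lowest sum, and its single markers moved in opposite directions. Dcx measured 94717 there and 166353 to 182928 in the other 5 libraries, and Map2 83007 against 110671 to 120881. Tubb3 measured 207104 there against 126803 to 157923, and Stmn2 55383 against 29369 to 35281. Radial glia markers (8 genes) summed to 384017 to 553190 in the controls and 409607 to 521913 in the sponge libraries. Control library 1 held the highest of these sums, but its single markers again moved in opposite directions. Fabp7 measured 299359 there against 169349 to 225350 in the other 5 libraries, and Vim, Nes, Hes1 and Hes5 were also highest there. Slc1a3 (92859 against 97486 to 146092) and Pax6 (12042 against 13561 to 16700) were lowest there, and Sox2 lay within the range of the others. The labels name cortical neurons, but progenitor and glial markers were also abundant. Mean normalised counts, not set per length, were 205406 for Fabp7 and 51616 for Olig1, beside 151847 for Tubb3. Levels given here are those of whole samples, not of upper-layer neurons alone. In such bulk samples, fewer cells of a type and less RNA per cell cannot be told apart.

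Sequence bears on the readout in a pair of ways: whether the sponged microRNA has a match in any of the 9 transcripts and whether reads of the close paralogs could be confused. A microRNA recognises targets mainly through its seed, bases 2 to 8. RefSeq (GRCm38.p6) holds 7 mature mouse microRNAs with the seed of miR-17-5p. miR-17-5p (chromosome 14, 115043684 to 115043706, plus strand) and 5 of its relatives are printed to show the seed they share, in capitals:
mmu-miR-17-5p: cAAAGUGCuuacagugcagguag
mmu-miR-20a-5p: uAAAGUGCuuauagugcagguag
mmu-miR-106a-5p: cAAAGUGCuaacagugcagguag
mmu-miR-20b-5p: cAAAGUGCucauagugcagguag
mmu-miR-93-5p: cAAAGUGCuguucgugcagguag
mmu-miR-106b-5p: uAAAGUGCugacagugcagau

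The complement of the seed, GCACTTT, was searched on the sense strand of the annotated 3′ UTRs (GENCODE M21, GRCm38). It was present in Pou3f3 and Rorb, 1 match each, and in none of the other 7 genes. That is 22.2% of the 9 genes, against 15% (2280) of the 15198 tested genes with a 3′ UTR of at least 50 bases. The sites, with the match in capitals, lie at chr1:42702078-42702106 on the plus strand (Pou3f3) and chr19:18932689-18932717 on the minus strand (Rorb):
Pou3f3 site: agctgacgcttGCACTTTttgttttaaag
Rorb site: tgtctgtctgtGCACTTTtttcctaagct
Neither is followed by the A that would make an 8-base match. The 3′ UTRs of the 9 genes ran from 604 bases in Lhx2 to 8376 in Cux1, with 4537 in Pou3f3 and 7275 in Rorb, against a median of 1167 bases over all genes with one. A match describes the letters only.

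Pou3f1, Pou3f2 and Pou3f3 encode closely related POU proteins, each from 1 exon. Their longest identical coding stretch, 38 bases, joins Pou3f1 and Pou3f2. It occupies positions 883 to 920 of the 1350-base Pou3f1 coding sequence:
Pou3f1 and Pou3f2: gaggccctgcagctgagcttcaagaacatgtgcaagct
The longest run was 29 bases between Pou3f1 and Pou3f3, and 23 bases both between Pou3f2 and Pou3f3 and between Cux1 and Cux2. None of the 50-base words of any of the 9 transcripts occurred in another of the 9. Read length is not given in the labels. Of the 50-base words of Pou3f1, 7.42% also occur in Gm2164 on the opposite strand, and of those of Cux1, 2.7% occur in Gm16599. The shares found in any other gene were 0.56% for Pou3f2, 0.245% for Pou3f3 and 0.087% for Rorb, and 0 for the remaining 4 genes. Gm2164 and Gm16599 had mean normalised counts of 286 and 296, or 1.68% and 0.82% of those of Pou3f1 and Cux1. Whether the counting used strand is not stated in the labels, so it is not known whether reads of these antisense pairs were separated.

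The level of the 9 factors spanned a wide range. Set per kilobase of annotated exon, Pou3f3 stood highest with 22240 ± 1964 normalised counts per kb (SD over the 6 libraries), above 99.4% of 22428 tested genes with a known length. Pou3f2 followed with 9785 ± 1706, Lhx2 with 8767 ± 373 and Bhlhe22 with 8164 ± 525. The ranges of Pou3f2 and Lhx2 overlapped, as did those of Lhx2 and Bhlhe22, so this part of the order is not separated by the spread.

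Pou3f1 (4423 ± 246 normalised counts per kb) and Lmo4 (4335 ± 581) overlapped as well, and lay below Bhlhe22 in every library. Cux2 had 3193 ± 766, with its highest library at 4382 against 3531 for the lowest of Lmo4. Cux1 had 1805 ± 163 and Rorb 319 ± 29.4, which is close to the middle of all tested genes (46.4% of them lay lower). Rorb, the layer IV factor, was below Cux1 in all 6 libraries, 282 to 369 against 1546 to 2009 normalised counts per kb. Exon length affects this order: with the longest transcript in place of all annotated exons, Lhx2 stood at 13562 and Lmo4 at 9169 normalised counts per kb, and Lhx2 then ranked above Pou3f2. Lmo4 then ranked above Bhlhe22 (8164), with overlapping ranges. Its lowest library (7468) then exceeded the highest of Pou3f1 (4808).

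**Figure D1:**
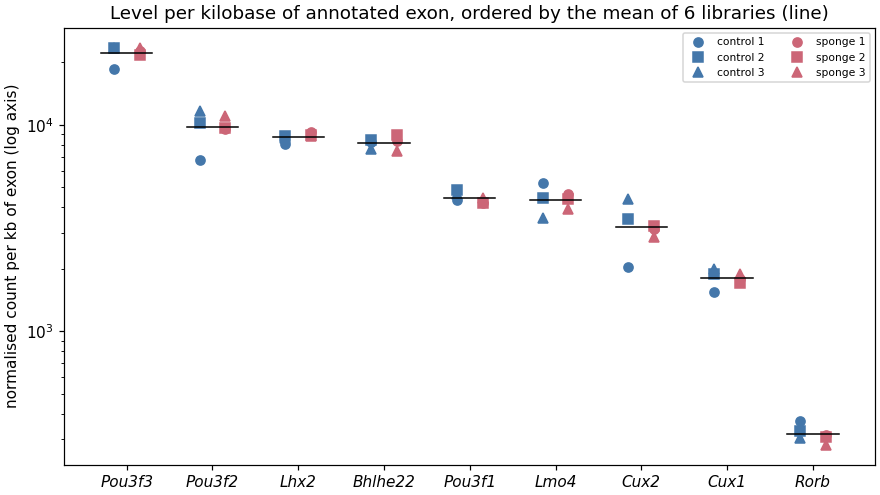
Normalised counts per kilobase of annotated exon (log axis) for the 9 factors, in 3 control libraries (blue) and 3 sponge libraries (red); the line is the mean of 6. Pou3f3 stands alone at the top with a mean of 22240 and Rorb at the bottom with 319.

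None of the 9 factors passed the test between sponge and control. With limma on log2(value + 1), 0 of 9 had an adjusted p under 0.05, where the background is 0% of the 22479 genes tested (smallest adjusted p over all genes 0.406, over the 9 factors 0.925). None of the 9 had an unadjusted p under 0.05 either, which 2.89% of all genes did. The fold changes were small: 4 factors stood higher and 5 lower, from −0.15 (Rorb) to 0.11 (Pou3f2) on the log2 scale, with a median of −0.01 against 0.01 for all genes tested. Across the 9 genes, the 95% intervals reached from 0.643-fold (Cux2) at the low end to 1.505-fold (Pou3f2) at the high end, and a p that misses the threshold does not show that levels were equal. Sponge and control ranges were separate for 1 of 9 factors, Lhx2, or 11.1%, against 11.2% of all genes tested. That share is at the background. In the authors' deposited table, which rests on the same 6 libraries, all 9 were listed, each with the sign that limma gave it (4 positive and 5 negative). The log2 fold changes there lay between −0.153 (Rorb) and 0.0747 (Lhx2), and the smallest of the authors' adjusted p-values for the 9 was 0.995. That table holds 10812 genes with means of 1002.76 or more, and 1 of them (0.00925%) had an authors' adjusted p under 0.05.

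**Figure D2:**
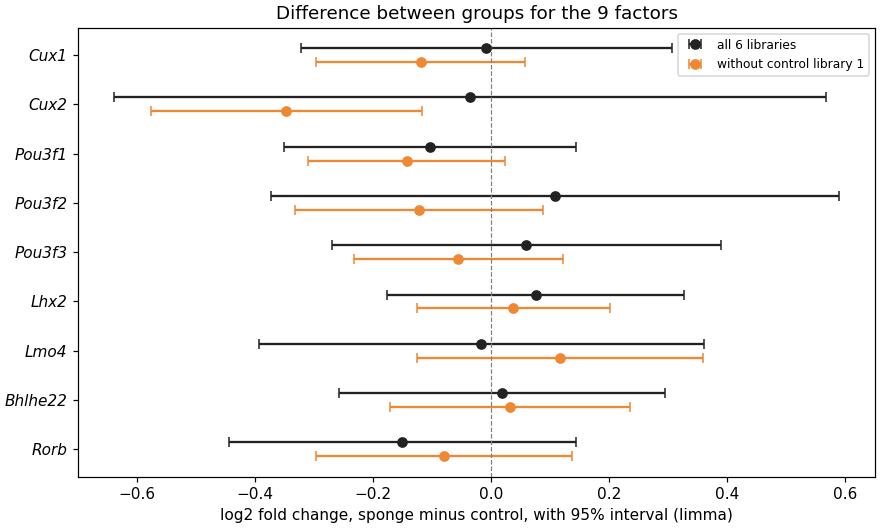
Log2 fold change of each factor, sponge minus control, with its 95% interval from limma, for all 6 libraries (black) and without control library 1 (orange). All 9 black intervals include 0; the orange interval of Cux2, from −0.58 to −0.12, does not.

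Cux1 and Cux2 are homeodomain proteins of the Cut family, which in mouse upper-layer neurons regulate dendrite branching and spine formation. Cux2 (ENSMUSG00000042589, chromosome 5, 121856366 to 122050102, minus strand, GRCm38) measured 20618, 35214 and 44183 normalised counts in control libraries 1 to 3, and 31591, 32701 and 28863 in sponge libraries 1 to 3. Control libraries spanned the whole range, with library 1 lowest and library 3 highest, and the sponge libraries lay between them. The groups averaged 33339 ± 11894 and 31052 ± 1975 (SD, n = 3 libraries each), and limma put their log2 difference at −0.04 ± 0.26 (SE, adjusted p = 0.982).

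Among the 9 factors Cux2 varied most within groups: its SD on the log2 scale was 0.40, larger than in 89.6% of the 11396 genes with a mean of at least 1000, whose median was 0.20. The value rests on single libraries. Without control library 1 both remaining controls lay above all 3 sponge libraries and the log2 fold change was −0.35 ± 0.10 (SE; unadjusted p = 0.00684, limma adjusted p = 0.648). It was 0.04 without control library 2, 0.20 without control library 3 and 0.02 without sponge library 3. Without control library 1, 1 of the 9 factors (11.1%), Cux2, had an unadjusted p under 0.05, against 7.53% of all genes tested, and 0 of 9 passed the adjusted threshold, against 0.0089%.

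Cux1 (ENSMUSG00000029705, chromosome 5, 136248135 to 136567490, minus strand) measured 30950, 37832 and 40234 normalised counts in control libraries 1 to 3. In sponge libraries 1 to 3 it measured 35837, 34209 and 37818. Control library 1 was again the lowest of the 6 and control library 3 the highest. By limma the sponge group stood at −0.01 ± 0.14 against control in log2 units (SE, adjusted p = 0.994). This turned to 0.03 without control library 2, 0.07 without control library 3 and 0.03 without sponge library 2. The 95% interval of the fold was 0.800 to 1.24. The ratio of Cux1 to Cux2 normalised counts was 1.16 ± 0.305 in the controls and 1.16 ± 0.134 in the sponge libraries (SD, n = 3 each), with 1.501 in control library 1. These counts were not set per length, so the ratio does not rank the genes.

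**Figure D3:**
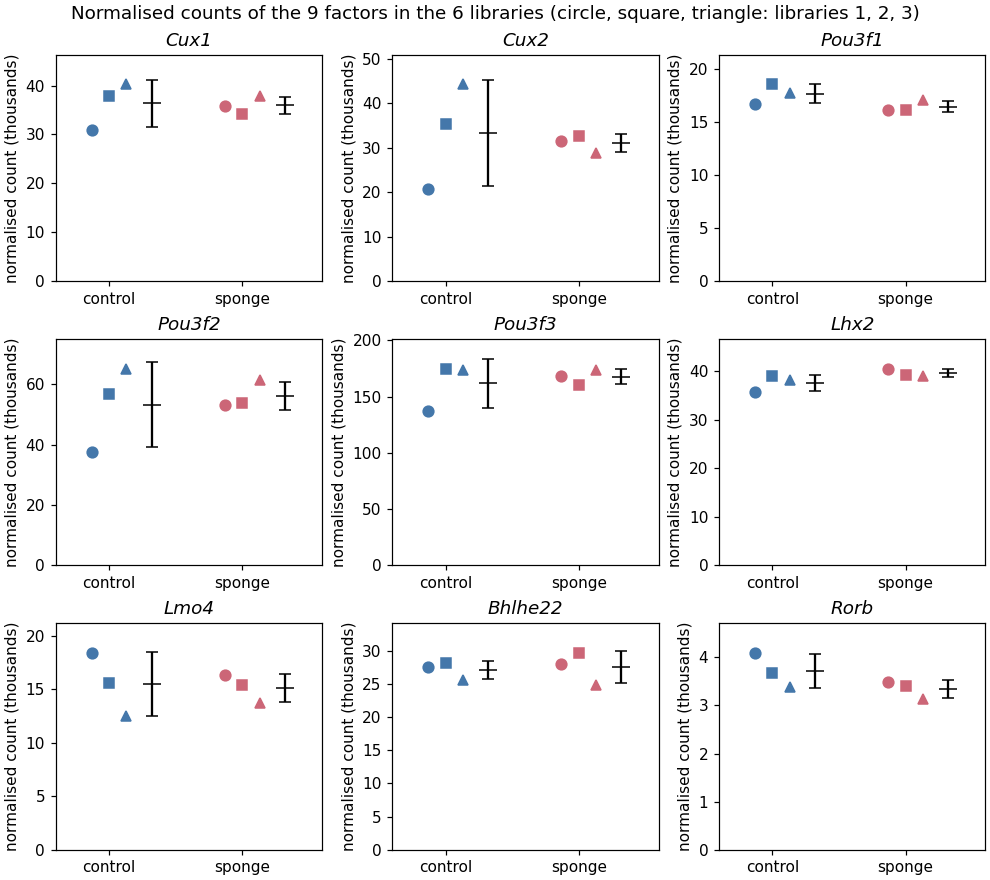
Normalised counts of each factor (axes from 0) in control (blue) and sponge (red) libraries, with mean and SD in black. For Cux2 and Pou3f2 control library 1 lies far below the others (20618 and 37687), while for Lhx2 all sponge values exceed all control values by a small margin.

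The POU factors Pou3f2 and Pou3f3, known as Brn2 and Brn1, act redundantly in mouse to produce and place upper-layer neurons. Pou3f3 (ENSMUSG00000045515, chromosome 1, 42695768 to 42703176, plus strand) was the most abundant of the 9 factors. Its normalised counts were 137047, 174893 and 173526 in control libraries 1 to 3, and 168827, 160764 and 173601 in sponge libraries 1 to 3. Control library 1 was the lowest of the 6, and the other controls lay within or just above the range of the sponge libraries. Limma estimated 0.06 ± 0.14 in log2 units (SE, adjusted p = 0.947), and −0.06 without control library 1. Pou3f3 is 1 of the pair with a seed match. For comparison, the median over all 2280 tested genes with a match was 0.07, and −0.02 over those without. Without control library 1 the medians were 0.01 and 0.02.

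Pou3f2 (ENSMUSG00000095139, chromosome 4, 22482780 to 22488366, minus strand) measured 37687, 56919 and 65163 normalised counts in control libraries 1 to 3. In sponge libraries 1 to 3 it measured 53011, 53714 and 61516. As for Cux2, control library 1 was lowest and control library 3 highest, and control library 1 stood at 61.7% of the mean of the other controls (51.9% for Cux2). For Pou3f2 the limma estimate was 0.11 ± 0.21 in log2 units (SE, adjusted p = 0.937), and −0.12 without control library 1.

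Pou3f1 (ENSMUSG00000090125, chromosome 4, 124656807 to 124660655, plus strand), the third POU paralog, known as Oct6 and in mouse also for its role in Schwann cells, varied less. It measured 16673, 18506 and 17739 normalised counts in control libraries 1 to 3, and 16121, 16112 and 17003 in sponge libraries 1 to 3. The groups overlapped only through control library 1 and sponge library 3. Sponge minus control came to −0.10 ± 0.11 in log2 units (SE, limma adjusted p = 0.925), and stayed negative whichever library was left out. Within-group SD was smaller than that of Pou3f1 in 4.39% of the genes with a mean of at least 1000. Of the summed counts per kb of the POU trio, Pou3f3 contributed 60.9 ± 1.78% in the controls and 61.3 ± 1.11% in the sponge libraries, Pou3f2 26.2 ± 3.29% and 27.1 ± 1.16%, and Pou3f1 12.9 ± 1.57% and 11.5 ± 0.219% (SD, n = 3 each). For each of the trio the groups differed by less than the SD of the controls. For Pou3f1 the difference exceeded the sponge SD, and the control SD rested largely on control library 1. That library held 14.6%, against 12.5% and 11.6% in the other controls and 11.4 to 11.8% in the sponge libraries.

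Lhx2 and Lmo4 belong to the LIM-domain proteins. Lhx2, a LIM homeodomain factor that specifies cortical identity in mouse progenitors, binds DNA, whereas Lmo4 has LIM domains only and works through partners. Lhx2 (ENSMUSG00000000247, chromosome 2, 38339281 to 38369733, plus strand) measured 35575, 38927 and 38051 normalised counts in control libraries 1 to 3. The sponge group held 40467, 39129 and 38940. The lowest sponge library exceeded the highest control library by a margin that is small beside the spread within the groups. Means were 37518 ± 1738 and 39512 ± 832 (SD, n = 3 libraries each), or 0.08 ± 0.11 in log2 units by limma (SE, adjusted p = 0.926), and 0.04 without control library 1. Its within-group spread was among the smallest: 2.50% of the genes with a mean of at least 1000 had a smaller one.

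Lmo4 (ENSMUSG00000028266, chromosome 3, 144188530 to 144205220, minus strand) measured 18371, 15570 and 12464 normalised counts in control libraries 1 to 3, and 16311, 15381 and 13726 in sponge libraries 1 to 3. Here control library 1 was the highest of the 6 and control library 3 the lowest, the reverse of Cux2. Cux2 counts, not set per length, were 1.12 times those of Lmo4 in control library 1 and 3.54 times in control library 3. In the sponge libraries this ratio lay between 1.94 and 2.13. Lmo4 itself stood at −0.02 ± 0.16 in log2 units (SE, limma adjusted p = 0.987). Leaving out control library 1 gave 0.12, and leaving out sponge library 3 gave 0.05.

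Bhlhe22, a basic helix-loop-helix repressor that in mouse helps set area identity in postmitotic neurons (ENSMUSG00000025128, chromosome 3, 18054174 to 18057517, plus strand), was nearly level. It measured 27604, 28087 and 25611 normalised counts in control libraries 1 to 3, and 27970, 29649 and 24874 in sponge libraries 1 to 3. Sponge libraries held both the highest and the lowest value. Limma placed Bhlhe22 at 0.02 ± 0.12 in log2 units (SE, adjusted p = 0.981). Leaving out control library 3 gave −0.02, and leaving out sponge library 2 gave −0.04.

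Rorb, a nuclear receptor that drives layer IV identity in mouse (ENSMUSG00000036192, chromosome 19, 18930605 to 19111196, minus strand), measured 4090, 3668 and 3390 normalised counts in control libraries 1 to 3. The sponge group held 3493, 3407 and 3127. Control library 3 lay below 2 of the sponge values, and the other controls lay above all of them. Its difference of −0.15 ± 0.13 in log2 units (SE, limma adjusted p = 0.925) was negative whichever library was left out, from −0.21 to −0.08, the latter without control library 1. Rorb carries the other seed match, and its fold change and that of Pou3f3 had opposite signs over all 6 libraries, and both were negative without control library 1.

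The 9 factors did not deviate together in control library 1. Relative to the mean of the other 5 libraries it stood 0.73 lower for Cux2 on the log2 scale, 0.62 lower for Pou3f2, 0.31 lower for Pou3f3, 0.26 lower for Cux1 and 0.14 lower for Lhx2. For Lmo4 it was 0.33 higher and for Rorb 0.26 higher, and for Bhlhe22 and Pou3f1 it was within 0.04 of the others. The erythroid markers moved with control library 1 as given above, and their part in these values was not tested. Likeness was measured as the root mean square difference between the log2 profiles over the 6 libraries, each centred on its mean. Among the 9 factors, the closest pair was Cux1 and Pou3f3 (0.0462). Of 14078 other genes with a mean of at least 50, 0.291% were closer to Cux1 than Pou3f3 was, and 0.810% were closer to Pou3f3 than Cux1 was. The single closest gene was Rcbtb1 for Cux1 (0.0163), Ctif for Pou3f3 (0.0223), Lrch4 for Cux2 (0.0452), Zfp449 for Pou3f2 (0.0205) and Katnbl1 for Pou3f1 (0.0203). It was Acad9 for Lhx2 (0.0177), Pold2 for Lmo4 (0.0368), Grasp for Bhlhe22 (0.0483) and Gfod2 for Rorb (0.0205). These are descriptions over 6 libraries that share control library 1.

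**Figure D4:**
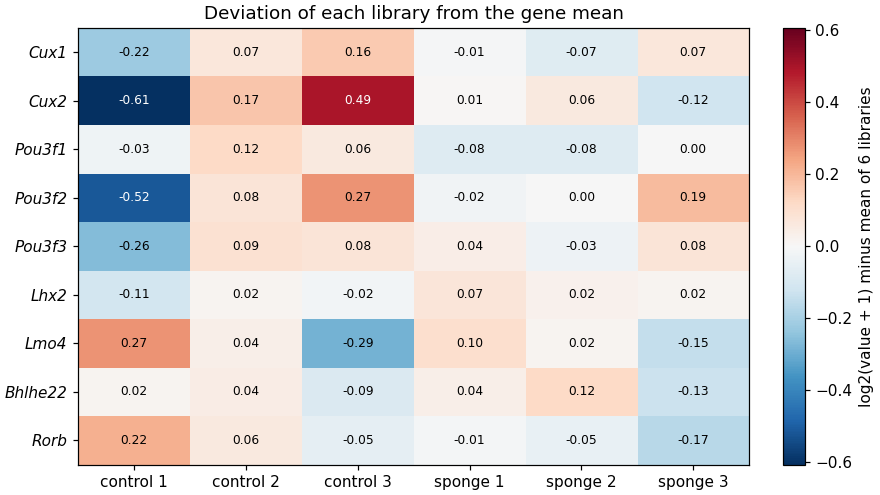
Deviation of each library from the gene's mean over 6 libraries, on the log2(value + 1) scale. Control library 1 is low for Cux2 (−0.61) and Pou3f2 (−0.52) and high for Lmo4 (0.27) and Rorb (0.22), and control library 3 shows the opposite signs for these 4 genes.

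Proteins that work with the 9 factors were described through a list of 10 partners and co-regulators. Of these, 4 stood higher and 6 lower, 0 passed the limma test, and the median log2 fold change was −0.04. Ldb1, the adaptor that Lhx2 and Lmo4 both bind, measured 40378, 41365 and 46575 normalised counts in control libraries 1 to 3, and 35733, 38716 and 35644 in sponge libraries 1 to 3. All 3 sponge values lay below all controls, which 5.04% of all genes tested showed. Ldb1 stood at −0.22 ± 0.12 in log2 units (SE, limma adjusted p = 0.925), and at −0.26 without control library 1 (limma adjusted p = 0.648). Sox11, a Sox factor of young neurons, also had all sponge values below the controls (−0.20 ± 0.12, SE), while the E protein Tcf12, a dimer partner of basic helix-loop-helix factors, had 0.28 ± 0.20 and 0.05 without control library 1.

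Among 8 paralogs of the 9 factors, 3 stood higher and 5 lower, and 0 passed. Rora, the paralog of Rorb, measured 1062, 1353 and 1448 normalised counts in control libraries 1 to 3, and 1792, 1878 and 1688 in sponge libraries 1 to 3. All sponge values of Rora lay above all controls, which 6.17% of all genes tested showed, and limma gave 0.48 ± 0.16 in log2 units (SE, adjusted p = 0.925), and 0.35 without control library 1. The fourth POU paralog Pou3f4 had 0.46 ± 0.27 and 0.18 without control library 1, and Bhlhe23 had −0.31 ± 0.27. The median of the paralogs was −0.12, and 0.08 without control library 1, when 6 of the 8 stood higher.

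Other genes of upper-layer and callosal neurons (18 genes) had a median log2 fold change of 0.06, with 10 higher, 8 lower and 0 called. The guidance receptors Nrp1 and Unc5d had 0.52 ± 0.29 and 0.41 ± 0.25 (SE), and 0.17 and 0.09 without control library 1, which held their lowest values. Hspb3, a small heat-shock protein, was barely detected (0 to 46.0 normalised counts). Deep-layer and subplate factors (10 genes) had a median of 0.06, with 7 higher, 3 lower and 0 called, and a median of −0.02 without control library 1. Their cofactor Zfpm2 had 0.61 ± 0.25, the speech-associated factor Foxp2 −0.37 ± 0.21 and Bcl11b, which directs subcerebral axons, −0.23 ± 0.16 (SE). Without control library 1 these were 0.32, −0.19 and −0.21. Summed over the list, deep-layer factors held 78342 to 99645 normalised counts in the controls and 88901 to 93099 in the sponge libraries, and the 9 upper-layer factors 328617 to 420360 and 385065 to 399467. Both sponge ranges lay inside the control ranges, whose low ends were both set by control library 1. For the 9 factors the other controls (409616 and 420360) lay above all 3 sponge sums. For the deep-layer factors the other controls held 99645 and 88245, and the sponge sums still lay between them.

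**Figure D5:**
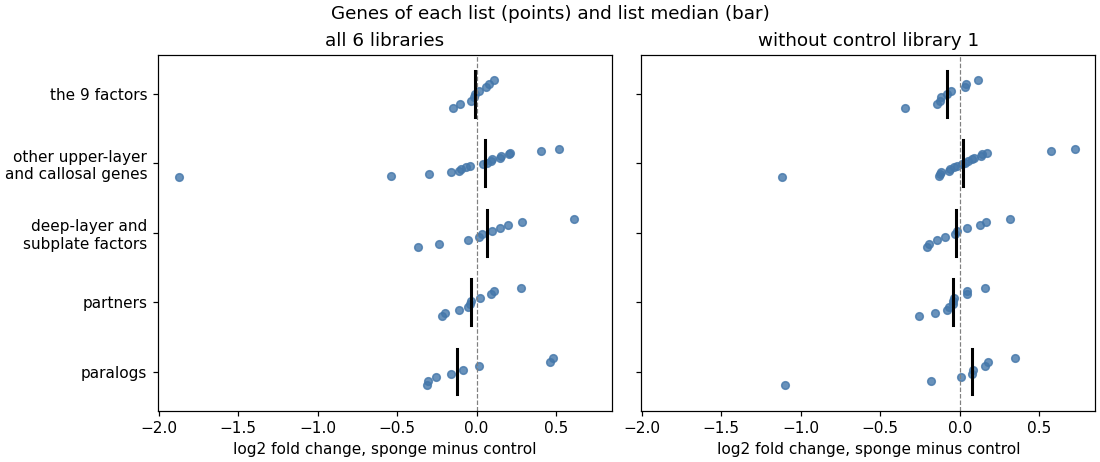
Log2 fold change, sponge minus control, of each gene in 5 lists (points) with the list median (bar), over all 6 libraries (left) and without control library 1 (right). The 9 factors lie between −0.15 and 0.11 on the left, and Cux2 is the lowest of them on the right at −0.35.

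Markers of other neural cell types were measured beside the 9 factors. Oligodendrocyte precursor markers (5 genes) summed to 84935 to 104807 normalised counts in the controls and 111800 to 125447 in the sponge libraries, and 5 of 5 stood higher in the sponge libraries, with 0 called. For 4 of the 5 every sponge value lay above every control value, which 6.17% of all genes tested showed. Their median log2 fold change was 0.36, and 0.24 without control library 1. The precursor factor Olig1 had 0.36 ± 0.12, the growth factor receptor Pdgfra 0.40 ± 0.15 and Olig2 0.36 ± 0.14 (SE). Interneuron markers (8 genes) summed to 56672 to 80051 in the controls and 43050 to 84042 in the sponge libraries, with 8 of 8 lower, 0 called and a median of −0.24. Leaving out control library 1 left 6 of the 8 lower, with a median of −0.17. Among them Npas1 had −0.60 ± 0.24, and the GABA-synthesising enzyme Gad1 and the peptide gene Sst had −0.35 ± 0.27 and −1.05 ± 0.81 (SE). Sst measured 690 normalised counts in control library 1 against 120 and 93.0 in the other controls, and stood at −0.16 without it, with Npas1 at −0.44 and Gad1 at −0.30. Of the 8 radial glia markers 4 stood higher and 4 lower, with a median of 0.00, and without control library 1, 7 stood higher, with a median of 0.11. The glutamate transporter Slc1a3 had 0.33 ± 0.14 (SE), and Sox2 and Pax6 both had 0.08. These were 0.28, 0.12 and −0.05 without that library. The 4 lower markers were Fabp7 (−0.11), Nes (−0.07), Vim (−0.07) and Hes5 (−0.02). Without that library they had 0.15, 0.07, 0.10 and 0.08. Intermediate progenitor markers (5 genes, 2 higher and 3 lower) had a median of −0.02, and −0.05 without control library 1. Btg2 had 0.11, Gadd45g −0.20 and Eomes −0.05, and 0.09, 0.04 and −0.15 without that library. Pan-neuronal markers (6 higher, 3 lower) had a median of 0.01, and −0.02 without control library 1. Neurod2 had −0.20 ± 0.11, Map2 0.22 ± 0.15 and Dcx 0.32 ± 0.23 (SE), and without control library 1 they had −0.25, 0.08 and 0.04. None of these marker genes passed the limma test, none was at 0 in every library, and their part in the values of the 9 factors was not tested.

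The summed levels of the marker lists for microglia, vascular and erythroid cells were each highest in control library 1, though single markers such as the pericyte gene Rgs5 (3272 there, 3682 in sponge library 1) were not. Microglia markers (6 genes) summed to 3953 normalised counts there and 1676 to 2189 in the other 5 libraries, and vascular markers (6 genes) to 13550 there and 8555 to 13294 in the others, the upper value in sponge library 1. Their median log2 fold changes turned without control library 1, from −0.47 to 0.22 for microglia and from −0.52 to 0.59 for the 5 erythroid markers, and the vascular median went from 0.17 to 0.62. The 5 astrocyte markers summed to 81945 to 144095 in the controls and 96458 to 144779 in the sponge libraries. Over all 6 libraries 3 of them stood higher and 2 lower, with a median of 0.12. Without control library 1, 4 stood higher and 1 lower, with a median of 0.34. The water channel Aqp4 had 0.81 ± 0.24, Aldh1l1 −0.45 ± 0.26 and Gfap 0.41 ± 0.52 (SE), and 0.57, −0.19 and 0.59 without that library. In the microglia list 2 markers stood higher and 4 lower: Aif1, Csf1r and C1qa had −0.56, −0.38 and −0.72, and P2ry12 and Cx3cr1 0.24 and 0.22. With that library left out, Aif1, Csf1r and C1qa were at −0.35, −0.08 and 0.13. In the vascular list 4 stood higher and 2 lower: Pdgfrb, Kdr and Rgs5 had 0.13, 0.34 and 0.20, and Flt1 −0.12. The same 4 genes had 0.17, 0.82, 0.47 and 0.40 without control library 1. The erythroid genes Alas2, Hbb-bt and Hbb-bs had −0.52, −0.82 and −0.61, with 5 of 5 lower, and 0.18, 0.47 and 0.78 without control library 1, where 5 of 5 stood higher. No gene of these 4 lists was called. P2ry12, Cx3cr1, Flt1, Fabp7, Nes, Vim, Hes1, Hes5, Tubb3 and Stmn2 were named after their values were seen.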

How the data were processed

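Messenger RNA was sequenced from 3 control and 3 sponge libraries, grouped by their titles. Per the labels' protocols, stranded mRNA libraries were made from 50 ng of total RNA. STAR 2.7.6a, DESeq2 1.30.1 and the builds mm10 and GRCm38 are named in the submitters' processing notes. For the counting tool, strand setting and annotation, a name is not given in the sources used here. Normalised counts were deposited as a linear signal, each column holding whole multiples of 1 step. For 10812 genes the authors' deposited table also lists log2 fold changes and the authors' p-values, raw and adjusted.

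Limma 3.58.1 (R 4.3.3) was fitted to log2(value + 1) of genes averaging 10 or more (trend, robust empirical Bayes, two-sided, Benjamini-Hochberg over all 22479 genes, threshold 0.05). No count model was fitted. Fold changes on this scale understate changes of low genes. Lists are described by counts and medians, without a test. Named genes are the 9 factors, up to 3 genes of smallest p per list, the gene of closest profile to each factor, and overlapping genes with shared exons. Lengths, overlaps and UTRs come from GENCODE M21 on GRCm38, microRNAs from RefSeq. The members, lists and alternatives were chosen with earlier results of these data known.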

Additional observations from a re-analysis of the deposited data

How the results depend on the processing

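None of the 9 factors passed the threshold under any of the alternatives run: other pseudocounts (0.5 and 5), no filter or a mean of at least 50, rescaling by TMM or to equal totals, array quality weights, the replicate block, and leaving out each library. With the replicate block 0 genes (527 at an unadjusted limma p under 0.05, against 650 without it) and 0 of the 9 factors were called. In this balanced layout the block leaves every log2 fold change as it was, so the medians were fixed in advance. They were −0.01 for the 9 factors, 0.06 for other upper-layer genes, 0.06 for deep-layer factors, −0.04 for partners and −0.12 for paralogs. The deviations of same-numbered libraries correlated at 0.0096, 0.0054 and −0.0532, and 1 of 3 control libraries was closest to the sponge library of its own number. With 3 libraries a group, this check cannot decide whether same-numbered libraries shared a litter or session. Array quality weights, whose estimation stopped before converging, called 4 genes (3 higher, 1 lower) and turned Pou3f3 (−0.048), Bhlhe22 (−0.017) and Pou3f2 (−0.018), the other upper-layer median (−0.012) and the deep-layer median (−0.034), and put Cux2 at −0.22 and Cux1 at −0.079. Leaving out 1 library at a time gave 0 to 2 genes called over all genes (2 without control library 1) and 0 to 0 among the 9 factors. Ranges of log2 fold changes were −0.055 to 0.12 for Pou3f3, −0.12 to 0.27 for Pou3f2, −0.16 to 0.12 for Lmo4, −0.35 to 0.20 for Cux2, −0.12 to 0.070 for Cux1 and −0.038 to 0.089 for Bhlhe22. List medians ran from −0.079 to 0.070 for the 9 factors, −0.25 to 0.077 for paralogs and −0.044 to −0.0083 for partners. With the longest transcript as length, normalised counts per kb were 2810 for Cux1, 13560 for Lhx2, 380 for Rorb and 9169 for Lmo4. The cause of each shift was not tested, beyond the lengths used. The 2 planned count-model tests were left out: all 6 columns hold whole multiples of 1 step, but the unit check used did not accept recovered reads for control libraries 1 and 3, whose steps lie near 1. The limma errors come from the spread between 3 libraries a group, and the part of depth in that spread was not tested.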
